A study of Homo sapiens with 8 samples.

Results

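The genes described here encode feedback inhibitors and transcriptional read-outs of the ERK branch of MAP kinase signalling: the phosphatases DUSP1, DUSP4, DUSP5 and DUSP6, the Sprouty proteins SPRY1, SPRY2 and SPRY4, the Sprouty-related proteins SPRED1 and SPRED2, and PHLDA1. They were chosen by gene symbol, and 10 of the 10 symbols were found among the 17561 genes of the deposited table. None of the 10 was called changed upon GRHL2 expression by limma at an adjusted p under 0.05, where 2.19% of all genes were called. The median log2 fold change of the members (log2 FC, pGRHL2/pcDNA3) was -0.02. Their differences instead varied from pair to pair, being mostly negative in pair 2 and mostly positive in pair 4.

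In this pathway, growth factor receptors activate RAS, which acts through RAF and MEK kinases on ERK, and ERK in turn promotes transcription of its own inhibitors. DUSP proteins remove the activating phosphates of MAP kinases, DUSP6 and DUSP5 acting mainly on ERK in the cytoplasm and in the nucleus, respectively, while DUSP1 also acts on p38 and JNK. Sprouty and SPRED proteins dampen the signal between receptor and RAF, and the amounts of these transcripts are commonly read as a record of recent ERK activity. HepG2 cells are a human liver tumor line that carries an activated NRAS allele.

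Transcripts were measured 48 h after transfection of HepG2 cells with pGRHL2, a plasmid driving a flag-tagged GRHL2 cDNA and a green fluorescent protein from an EEF1A1 promoter, or with the control vector pcDNA3. The plasmids thus differed in more than the GRHL2 insert, and no control with the same promoter and fluorescent protein was analysed here. All cells were kept in a medium containing serum, insulin and dexamethasone, a synthetic glucocorticoid. There were 4 libraries per plasmid, numbered 1 to 4, described by the study as independent biological replicates, and p-values measure only the spread between these libraries. Bulk RNA averages transfected and untransfected cells, and a smaller number of expressing cells cannot be told apart from less RNA per cell.

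The values were on a log2 scale and corrected by the authors for transcript length, and read depth was unknown. For 17561 of 17561 genes, same-numbered pGRHL2 and pcDNA3 libraries lay at equal distances above and below a single gene mean, so that only the 4 pair differences carry information and the groups have equal SD by construction. GRHL2, which checks the labels, was higher in 4 of 4 pairs, by 9.48 ± 0.57 on average (log2, SD over the 4 pairs). Of the hepatocyte and hepatoma markers, 7 of 7 were listed, with mean log2 values of 9.83 to 17.1, while 2 of 5 fibroblast, 2 of 4 endothelial and 1 of 5 immune markers were listed. The fibroblast and endothelial markers had mean log2 values of 1.91 to 5.83 and LYZ, the only immune marker listed, one of 13.3.

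Promoter sequences were inspected for 4 members, because these are the ones in which a motif of a relevant factor was found within the 250 bases before an annotated start. The windows were taken from RefSeq (GRCh38.p14), which gave 12 windows for 8 of the 10 members, DUSP4 and DUSP5 having no entry. Each is printed from 5′ to 3′ on the strand of the gene, with the motif in capitals. DUSP1 (chr5:172771196-172771445, minus strand) holds TGACGTCA, the cyclic AMP response element bound by CREB. DUSP6 (chr12:89352502-89352751, minus strand), SPRY2 (chr13:80340109-80340358, minus strand, 1 of 3 starts) and SPRY1 (chr4:123398136-123398385, plus strand, 1 of 2 starts) each hold AACCNGTT on either strand, a relaxed form of the Grainyhead motif AACCGGTT.
DUSP1: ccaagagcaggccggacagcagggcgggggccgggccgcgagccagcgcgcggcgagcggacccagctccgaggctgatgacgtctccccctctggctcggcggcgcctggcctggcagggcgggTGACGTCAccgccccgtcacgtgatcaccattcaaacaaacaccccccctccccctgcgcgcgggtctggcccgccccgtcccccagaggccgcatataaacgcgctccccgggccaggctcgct
DUSP6: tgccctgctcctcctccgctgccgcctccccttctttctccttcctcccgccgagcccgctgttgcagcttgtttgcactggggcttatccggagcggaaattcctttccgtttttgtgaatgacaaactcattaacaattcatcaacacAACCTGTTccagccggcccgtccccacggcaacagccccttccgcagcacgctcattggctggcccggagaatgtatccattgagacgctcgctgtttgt
SPRY2: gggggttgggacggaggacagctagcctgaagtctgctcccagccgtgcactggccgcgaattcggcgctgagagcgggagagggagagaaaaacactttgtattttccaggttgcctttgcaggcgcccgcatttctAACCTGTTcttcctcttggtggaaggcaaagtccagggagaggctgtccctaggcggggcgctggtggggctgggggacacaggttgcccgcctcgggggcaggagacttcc
SPRY1: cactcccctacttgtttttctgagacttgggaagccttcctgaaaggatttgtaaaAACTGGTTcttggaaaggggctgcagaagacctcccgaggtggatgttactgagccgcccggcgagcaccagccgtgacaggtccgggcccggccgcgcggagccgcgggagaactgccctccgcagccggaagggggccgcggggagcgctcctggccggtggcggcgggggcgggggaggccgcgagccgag

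Over all genes, TGACGTCA was present in 1.65% and AACCNGTT in 1.49% of 35116 such windows, both strands being searched. AACCNGTT includes every match of AACCGGTT, which 0.117% of all windows and 0 of the 12 member windows held. The other 4 motifs searched had 0 matches in the member windows, namely CCGGAAGT (ETS), TGANTCA (AP-1), the CArG box (SRF) and the palindromic glucocorticoid response element, which were present in 3.42%, 6.57%, 0.0313% and 0.00285% of all windows. The CArG box was searched as a fixed sequence with no open base, so other forms of it were not looked for. That sequence was present in 11 and the full glucocorticoid palindrome in 1 of 35116 windows. At such frequencies, 0 matches in 12 member windows cannot show that the members lack these elements. A match describes the letters of the window only, and binding was not measured in these libraries.

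The deposited levels of the members differed widely, but they depend on the length used in the correction, the mean over annotated transcripts. In GENCODE release 44 that mean was 1348 bases for SPRED2, 1566 for DUSP6 and 5827 for PHLDA1. The order below is therefore one of corrected values and may differ from that of transcript abundance. On the length-corrected log2 scale, SPRED2 was the highest with a mean of 10.9 over the 8 libraries, followed by DUSP6 (10.5), PHLDA1 (9.45), DUSP1 (9.25), SPRY4 (9.22), SPRY1 (8.72), DUSP5 (8.56), SPRED1 (8.21), SPRY2 (6.78) and DUSP4 (5.42). The library ranges of PHLDA1, DUSP1 and SPRY4 overlapped from neighbour to neighbour, as did those of SPRY1, DUSP5 and SPRED1. With the replicate means removed, these ranges hold only the pair differences. They cannot show which orders of level are resolved. SPRED2 exceeded 94.2% of all genes in mean level and DUSP6 91.7%, whereas SPRY2 lay near the middle of the table (50.5%) and DUSP4 exceeded 40.9% of genes. As counting did not use strand, DUSP6 is uncertain in level, since 28.6% of its exon bases in GENCODE release 44 also belong to exons of an unnamed gene on the opposite strand, and PHLDA1 shares 9.35% with PHLDA1-AS1. The other 8 members share no exon bases with another gene.

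**Figure D1:**
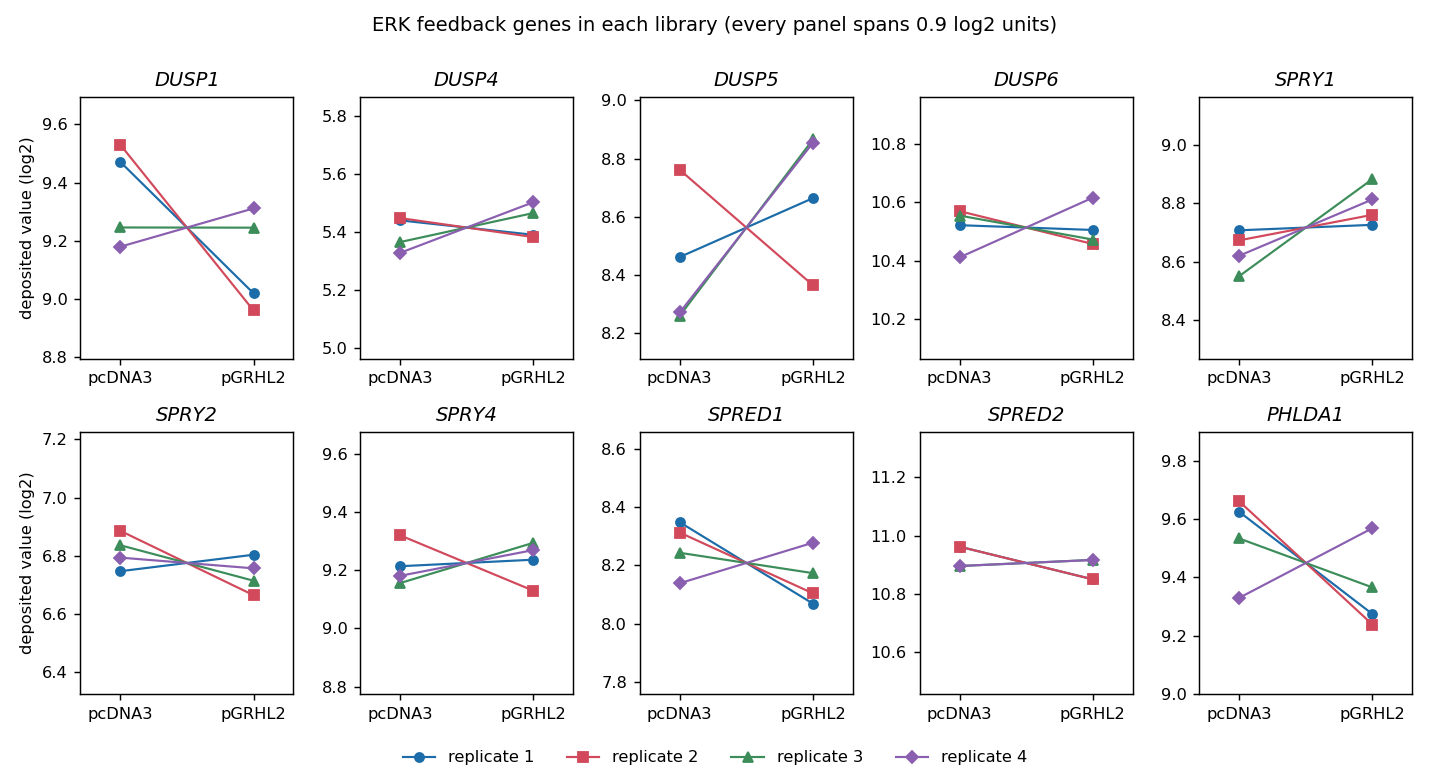
Deposited log2 value of each of the 10 genes in the 8 libraries, with pcDNA3 on the left and pGRHL2 on the right of each panel and a line joining libraries of the same replicate number. The lines cross at the gene mean because same-numbered libraries mirror each other. DUSP1, DUSP5 and PHLDA1 span the widest range, and only in SPRY1 do all 4 lines point upward.

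Comparison of pGRHL2 with pcDNA3 asked whether ERK feedback genes responded to GRHL2. With limma over all genes, 0 of the 10 members were higher and 0 were lower at an adjusted p under 0.05, where 2.19% of all genes were called (1.69% higher and 0.501% lower). At an unadjusted p under 0.05 there was 1 member, SPRY1, compared with 16.0% of all genes. Groups did not overlap for 1 member, again SPRY1, compared with 24.0% of all genes. Because same-numbered libraries mirror each other, this is the same fact as a difference of one sign in every pair. The mean differences of the members ranged from -0.22 to 0.25, with 4 positive and 6 negative, and their median of -0.02 stood beside a median of 0.0017 over all genes. A p above the threshold does not show that a gene was unaffected, so the 95% interval of the difference is given for each.

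Of the phosphatases, DUSP1, an immediate early gene that also responds to stress and glucocorticoids, lies at chr5:172768096-172771195 (hg38, minus strand). Its log2 values were 9.02, 8.96, 9.24 and 9.31 in pGRHL2 libraries 1 to 4 and 9.47, 9.53, 9.25 and 9.18 in pcDNA3 libraries 1 to 4. Libraries 1 and 2 were lower with pGRHL2, library 3 was level and library 4 was higher, so that the groups overlapped. The mean log2 FC over the 4 pairs was -0.22 ± 0.34 (SD; 95% interval from limma -0.48 to 0.04, adjusted p = 0.394 by limma), and it ranged from -0.34 without replicate 4 to -0.11 without replicate 2 (adjusted p = 0.182 and 0.786 by limma). On a linear scale the interval runs from 0.716 to 1.03 times the control.

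DUSP5, the nuclear ERK phosphatase, lies at chr10:110497907-110511533 (plus strand) and had the largest positive mean difference. It was measured at 8.66, 8.36, 8.87 and 8.85 in pGRHL2 libraries 1 to 4, and at 8.46, 8.76, 8.26 and 8.27 in pcDNA3 libraries 1 to 4. Library 2 went against the other 3, with a pair difference of -0.40 compared with 0.20, 0.61 and 0.58. The log2 FC was 0.25 ± 0.47 (95% interval -0.09 to 0.59, adjusted p = 0.469 by limma), and it ranged from 0.13 without replicate 3 to 0.46 without replicate 2 (adjusted p = 0.773 and 0.089 by limma).

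DUSP6, the cytoplasmic ERK phosphatase and a widely used ERK read-out, lies at chr12:89347235-89352501 (minus strand). Its values were 10.51, 10.46, 10.47 and 10.62 in pGRHL2 and 10.52, 10.57, 10.55 and 10.41 in pcDNA3, in the order of the replicate numbers. The groups overlapped almost completely, with only library 4 higher upon pGRHL2. The log2 FC was -0.0016 ± 0.14 (95% interval -0.15 to 0.15, adjusted p = 0.995 by limma). For the deposited values, this interval corresponds to 0.901 to 1.11 times the control. DUSP4, a nuclear phosphatase on chromosome 8 from 29333064 to 29350684, had the lowest corrected values of the members, at 5.38 to 5.50 in pGRHL2 and 5.33 to 5.45 in pcDNA3. It was lower in pairs 1 and 2 and higher in pairs 3 and 4, for a log2 FC of 0.04 ± 0.12 (95% interval -0.08 to 0.16, adjusted p = 0.780 by limma).

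Among the Sprouty genes, which encode membrane-associated inhibitors of receptor tyrosine kinase signalling, SPRY1 (chr4:123396795-123403760, plus strand) was the member whose difference had one sign in 4 of 4 pairs. Its values were 8.73, 8.76, 8.88 and 8.81 in pGRHL2 libraries 1 to 4 and 8.71, 8.67, 8.55 and 8.62 in pcDNA3 libraries 1 to 4. The lowest pGRHL2 library stood only just above the highest pcDNA3 library, both from replicate 1. Its mean log2 FC of 0.16 ± 0.14 had a 95% interval of 0.01 to 0.31, an adjusted p = 0.293 by limma and an exact two-sided sign-flip p of 0.125, the smallest that 4 pairs allow. When the pairs were ignored, SPRY1 was called (adjusted p = 0.041 by limma with no replicate block), as were 18.5% of all genes. The interval corresponds to 1.00 to 1.24 times the control. It included 0 with arrayWeights (-0.02 to 0.27) and when replicate 2, 3 or 4 was left out, the mean being 0.10 without replicate 3 (-0.06 to 0.26).

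SPRY2 (chr13:80335976-80341126, minus strand) was found at 6.67 to 6.80 in pGRHL2 and at 6.75 to 6.89 in pcDNA3. It was lower in 3 of 4 pairs, with a log2 FC of -0.08 ± 0.12 (95% interval -0.21 to 0.05, adjusted p = 0.567 by limma). SPRY4 (chr5:142310427-142326455, minus strand) was found at 9.13 to 9.29 in pGRHL2 and at 9.16 to 9.32 in pcDNA3, and was higher in 3 of 4 pairs. Its log2 FC of 0.01 ± 0.14 had a 95% interval of -0.14 to 0.17 (adjusted p = 0.954 by limma). The relaxed Grainyhead motif printed above was held by SPRY1, SPRY2 and DUSP6, whose mean differences were 0.16, -0.08 and -0.0016.

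SPRED1, which recruits the RAS inactivator neurofibromin to the membrane, lies at chr15:38252836-38357249 (plus strand). Its values were 8.07, 8.10, 8.17 and 8.28 in pGRHL2 libraries 1 to 4, compared with 8.35, 8.31, 8.24 and 8.14 in pcDNA3. It was lower in 3 of 4 pairs, with a log2 FC of -0.10 ± 0.18 (95% interval -0.28 to 0.07, adjusted p = 0.568 by limma). SPRED2 (chr2:65310851-65432637, minus strand), the member with the highest corrected values, varied least, being measured at 10.85 to 10.92 in pGRHL2 and 10.90 to 10.96 in pcDNA3. It was lower in pairs 1 and 2 and higher in pairs 3 and 4, for a log2 FC of -0.05 ± 0.08 (95% interval -0.17 to 0.08, adjusted p = 0.755 by limma).

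PHLDA1, a protein with a pleckstrin homology-like domain whose transcript follows ERK activity, lies at chr12:76025447-76031776 (minus strand). It was measured at 9.27, 9.24, 9.37 and 9.57 in pGRHL2 libraries 1 to 4 and at 9.63, 9.66, 9.53 and 9.33 in pcDNA3 libraries 1 to 4. Libraries 1 to 3 were lower with pGRHL2 while library 4 was higher. The log2 FC was -0.18 ± 0.30 (95% interval -0.41 to 0.06, adjusted p = 0.459 by limma), and it ranged from -0.31 without replicate 4 to -0.09 without replicate 2 (adjusted p = 0.091 and 0.816 by limma).

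**Figure D2:**
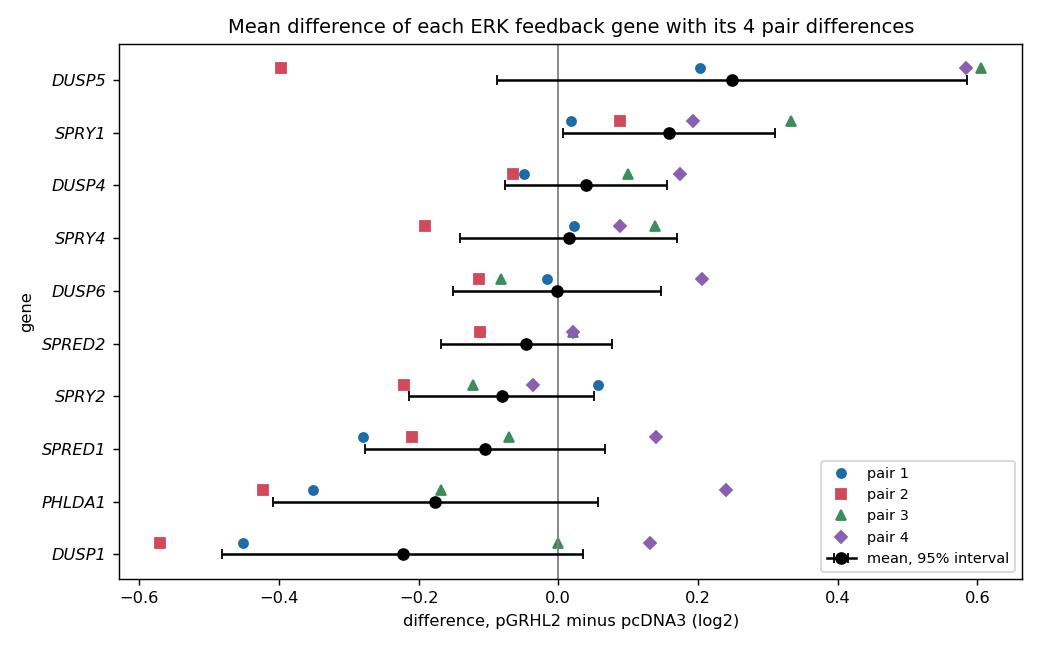
Mean difference of each gene between pGRHL2 and pcDNA3 (log2, black point) with its 95% interval from limma and, above it, the 4 pair differences, of which pairs 1 and 2 and pairs 3 and 4 coincide for SPRED2. The interval lies wholly above 0 for SPRY1 alone, and for every other gene the pairs lie on both sides of 0, farthest apart for DUSP1, DUSP5 and PHLDA1.

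The spread between pairs was widest for 3 members. The SD of the 4 pair differences was 0.47 for DUSP5, 0.34 for DUSP1 and 0.30 for PHLDA1, and among the 10858 genes with a mean value of at least 5 only 0.387%, 1.19% and 2.21% had a larger one. The other 7 members had SD of 0.08 to 0.18, compared with a median of 0.12 over those 10858 genes, and SPRED2 and DUSP4 had smaller SD than that median. Mean differences of DUSP1, DUSP5 and PHLDA1 were all smaller than their own SD, and the sign-flip test of their pair differences gave an exact two-sided p of 0.375 for each.

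Within pairs 2 and 4 most members shared the sign of their difference. In pair 2, 9 of 10 members were lower with pGRHL2, by a median of -0.20, whereas 52.8% of genes expressed at a mean of 5 or more were lower and their median was -0.01. In pair 4, 9 of 10 members were higher, by a median of 0.16, while 53.8% of those genes were lower in that pair. Medians over the members were -0.03 in pair 1, where 6 of 10 were lower, and 0.01 in pair 3, where 5 of 10 were. The exception in pair 2 was SPRY1 and that in pair 4 was SPRY2. All 4 phosphatases were lower in pair 2 (-0.57 to -0.07) and higher in pair 4 (0.13 to 0.58). Because the members were measured in the same libraries, these counts are not independent observations, and they were noticed in the same data.

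Other lists differed between the same pairs. Of the 7 hepatocyte and hepatoma markers, 7 were higher in pair 2, by a median of 0.31, where most feedback genes were lower. In each of pairs 1, 3 and 4, 5 of 7 were lower, with medians of -0.03, -0.05 and -0.12. Albumin (ALB) differed by -0.14, 0.33, -0.19 and -0.12 in pairs 1 to 4. The 4 cholangiocyte markers had medians of 0.14, 0.09, 0.07 and 0.23, with KRT19 alone lower in pair 2 (-0.34), and LYZ differed by 0.09, 0.31, -0.03 and -0.11. The interferon response genes had medians of -0.26, -0.0017, 0.37 and 0.12 in pairs 1 to 4, and GRHL2 itself differed by 8.97, 9.51, 10.26 and 9.18. The part of these differences in the values of the feedback genes was not tested.

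**Figure D3:**
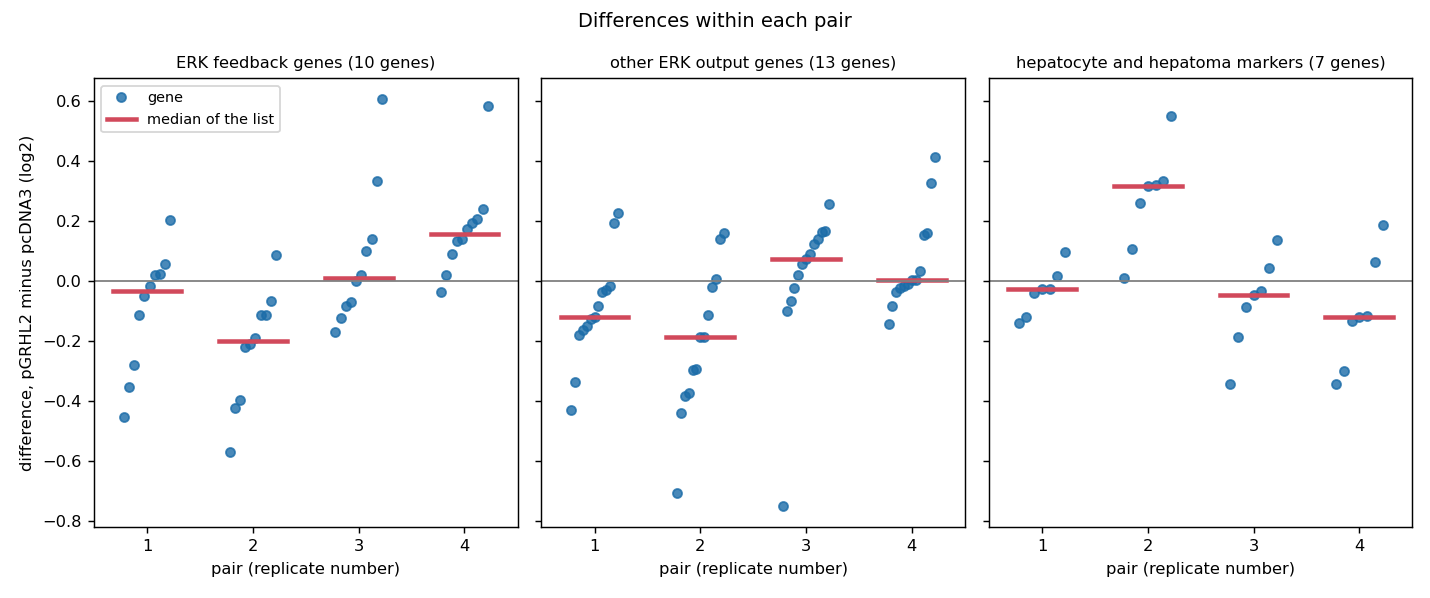
Difference between pGRHL2 and pcDNA3 (log2) within each of the 4 pairs, each point being a gene and each bar the median of its list, for the 10 ERK feedback genes, 13 other ERK output genes and 7 hepatocyte and hepatoma markers. The feedback genes lie mostly below 0 in pair 2 and mostly above 0 in pair 4, and the hepatocyte markers all lie above 0 in pair 2.

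Other genes of the pathway were compared by 9 lists holding 86 distinct genes of the table. Among 13 other genes whose transcription follows ERK, 0 were called higher and 1 was called lower by limma, with a median log2 FC of -0.04. This was FOS, an AP-1 subunit and immediate early gene, which was measured at a mean of 7.85 and was lower in 4 of 4 pairs by -0.43, -0.44, -0.75 and -0.14. Its log2 FC was -0.44 ± 0.25 (95% interval -0.64 to -0.24, adjusted p = 0.045 by limma), and the call was lost when replicate 1, 2 or 3 was left out (adjusted p = 0.190, 0.159 and 0.124 by limma). It was also lost with eBayes without trend (adjusted p = 0.155 by limma). FOSL1, another AP-1 subunit, had pair differences of -0.33, -0.71, 0.02 and 0.0041 and was not called (log2 FC of -0.25 ± 0.34, adjusted p = 0.323 by limma). These output genes were lower in pairs 1 and 2 in 11 and 10 of 13 genes, with medians of -0.12 and -0.19. They were higher in pair 3 in 9 of 13 genes (median of 0.07) and in pair 4 in 7 of 13 (median of 0.0037). Of genes with a mean of at least 5, 54.1%, 52.8%, 52.0% and 53.8% were lower in pairs 1 to 4. The ETS factors ETV4 and ETV5, also used as ERK read-outs, had log2 FC of -0.04 ± 0.04 and 0.05 ± 0.08.

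The kinase cascade itself gave 0 calls among 16 genes, with a median of -0.04. SOS1, the exchange factor that loads RAS with GTP, was lower in 4 of 4 pairs by -0.30, -0.26, -0.16 and -0.23, for a log2 FC of -0.24 ± 0.06 (95% interval -0.36 to -0.11, adjusted p = 0.070 by limma). Of 15 upstream receptors and ligands, 0 were called and the median was 0.04. HBEGF, an EGFR ligand, was higher in 4 of 4 pairs with a log2 FC of 0.17 ± 0.07 (adjusted p = 0.160 by limma), and EGFR had one of 0.26 ± 0.25 (adjusted p = 0.185 by limma).

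Of the brakes on MAP kinases outside the 10 members, 0 of 5 other phosphatases and 0 of 8 other RAS or ERK inhibitors were called. DUSP16, a JNK phosphatase, had a log2 FC of -0.16 ± 0.09 and DUSP10, which acts on p38 and JNK, one of 0.12 ± 0.08, each with the same sign in 4 of 4 pairs (adjusted p = 0.214 and 0.304 by limma). IL17RD, a membrane inhibitor of FGF signalling, was weakly expressed (mean of 2.83) and had a log2 FC of 0.09 ± 0.03 (adjusted p = 0.103 by limma). At such low levels the transformation used by the authors shrinks differences. DUSP8 was expressed near the bottom of the range (mean of 1.07), with a log2 FC of -0.05 ± 0.04, and RASA2 and NF1 had -0.13 ± 0.19 and -0.12 ± 0.16.

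Among 11 p38 and JNK kinases 0 were called. MAP2K7, a kinase upstream of JNK, differed by -0.16, -0.13, -0.18 and -0.16 in the 4 pairs (log2 FC of -0.16 ± 0.02, adjusted p = 0.179 by limma), and MAPK13, a p38 isoform, had a log2 FC of 0.15 ± 0.11. Glucocorticoid targets were compared because DUSP1 is one and dexamethasone was present in both groups. Of these, 0 of 8 were called, with a median of -0.0042, PER1 having the smallest p (log2 FC of 0.18 ± 0.10, adjusted p = 0.166 by limma). In the heat shock list 1 of 4 was called, HSPA6, with a log2 FC of 1.47 ± 0.34 (adjusted p = 7.76e-04 by limma), while DNAJB1 and HSPB1 had 0.12 ± 0.08 and 0.15 ± 0.24. The call of HSPA6 was lost with eBayes without trend (adjusted p = 0.076 by limma). Of 7 interferon response genes 0 were called.

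**Figure D4:**
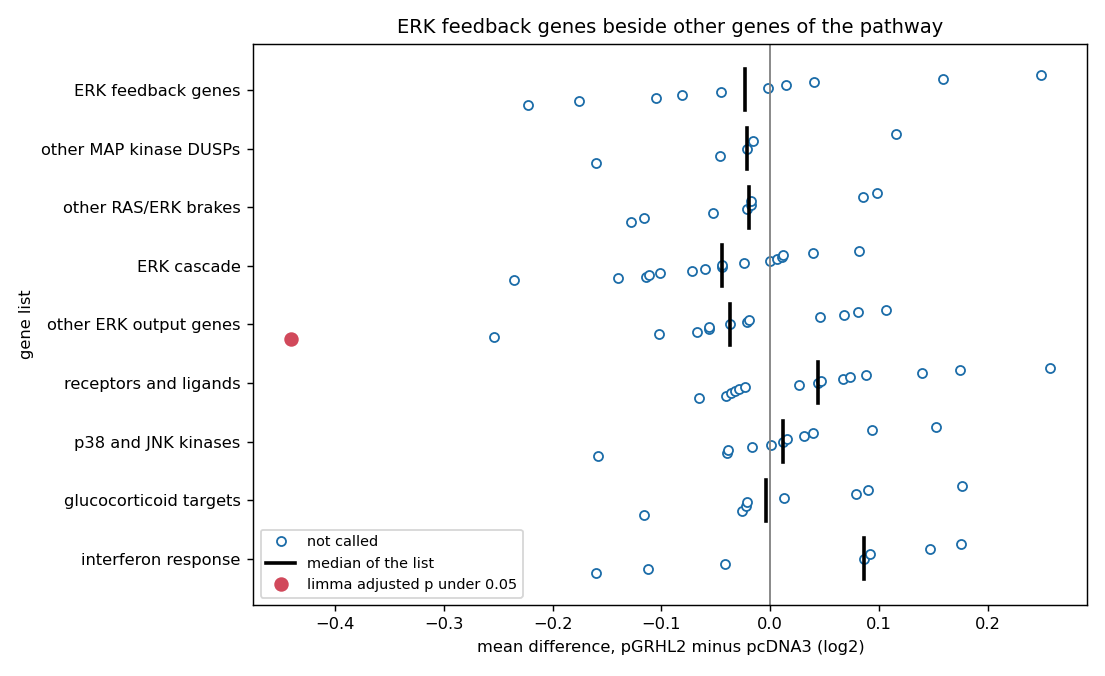
Mean difference between pGRHL2 and pcDNA3 (log2) of every gene of the feedback module and of 8 other lists, with the median of each list as a black bar and the gene called by limma filled in red. FOS is the only called gene among those plotted, and the heat shock list, which holds HSPA6, is left out for scale.

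Genes whose 4 pair differences were nearest to those of DUSP1 and DUSP5 were sought among the genes with a mean value of at least 5, by the root mean square distance on the log2 scale. For DUSP1 they were GNAI1, a G protein alpha subunit (0.074), TSC22D2 (0.091) and LINS1 (0.094), and the nearest other member was PHLDA1 (0.133). GNAI1 differed by -0.47, -0.48, -0.11 and 0.09 in pairs 1 to 4. For DUSP5 they were RAB3B, a vesicle GTPase (0.124), NBPF14 (0.141) and the laminin subunit LAMB3 (0.150), and the nearest member was SPRY1 (0.352). None of these 6 other genes was called by limma (adjusted p of 0.212 to 0.448), and with 4 pairs the likeness is a description only.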

How the data were processed

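The authors aligned paired-end reads to hg38 with HISAT2, counted exon reads without strand with HTSeq, and applied the rlog transformation of DESeq2 with a correction for mean transcript length. Versions in the submitters' processing notes are HISAT2 2.2.1, HTSeq 0.9.1 and DESeq2 1.40.2, and the methods of the study name other versions of HISAT2 and DESeq2. The deposited values are log2 values, although the table is named as FPKM, since 3.71% were below 0. In 17561 of 17561 genes the mean of same-numbered libraries was equal for all 4 numbers (within 1e-09), a step not given in the sources used here. The correlation check for pairing is void, because same-numbered deviations mirror each other. The replicate number was therefore kept as a block. A stray character was removed from 1 value.

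Differences were tested with limma 3.58.1 (lmFit, eBayes with trend; R 4.3.3) over 17561 genes, with 3 residual degrees of freedom, Benjamini-Hochberg adjustment and a threshold of 0.05. The script was tested on simulated data. Single genes also had an exact two-sided sign-flip test (scipy 1.17.1). Members, lists, motifs and tests were chosen with earlier results of these data known. Named were all members, GRHL2 and, per list, called genes or those of smallest p up to 3, with further genes (ETV4, ETV5, ALB, KRT19, LYZ) named after their values were seen. Some genes named by this rule are not reported here. Of 95 pathway genes listed, 86 were in the table. Alternatives were no block, robust or untrended eBayes, arrayWeights, 2 scalings, a mean of at least 5, an adjusted p under 0.01 and leaving out each replicate number. Positions are from GENCODE release 44.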

Additional observations from a re-analysis of the deposited data

Results flagged for a closer look

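Each named gene, and the median of the feedback genes, was examined for a pair lying far from the other 3, as measured by the gap to the nearest pair over the whole range. Chance alone marks about 1 in 20. This held for 3 of 50 results, and none of the 3 was an ERK feedback gene. The glucocorticoid target SGK1 differed by -0.329 in pair 3, compared with -0.07 to -0.03 in the others. The small heat shock gene HSPB1 differed by -0.216 in pair 3, compared with 0.22 to 0.29 in the others. TTR, which encodes the plasma carrier transthyretin, differed by 0.548 in pair 2, compared with -0.03 to 0.06, in the pair where 7 of 7 hepatocyte markers were higher and 9 of 10 feedback genes were lower. The causes were not tested.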

How the results depend on the processing

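No feedback gene was called in the blocked fits run (robust or untrended eBayes, arrayWeights, 2 scalings, a mean of at least 5, an adjusted p under 0.01, and leaving out each replicate). Without the replicate block, limma called 1 feedback gene higher (SPRY1, adjusted p of 0.041), with 1821 higher and 1427 lower genes over the table and 8 higher and 6 lower pathway genes, the block being needed because the replicate means had been removed. Untrended eBayes called 4 higher and 2 lower genes and 0 pathway genes in either direction, arrayWeights 503 and 221 with 2 lower pathway genes, the same total without GRHL2 495 higher, a mean of at least 5 63 higher, and an adjusted p under 0.01 77 higher and 10 lower. Leaving out a replicate gave 79 to 156 higher and 8 to 68 lower genes, and 0 to 1 lower pathway genes. The causes of these changes were not tested. Leave-one-out fits had fewer libraries and therefore less power. The median log2 FC of the feedback genes stayed between -0.04 and -0.01 in the fits with all replicates and between -0.07 and 0.006 in leave-one-out fits, being positive without replicate 2. DUSP6, SPRY4 and DUSP4 changed sign in 3, 2 and 1 of the 4 leave-one-out fits. The sign of DUSP6 also turned when the libraries were set to the same total without GRHL2 (0.01), and that of SPRY4 with arrayWeights (-0.00028). The rlog transformation limits what can be seen of weakly expressed genes, and read depth was unknown.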
